A study of Glycine max with 12 samples.

Results

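Melatonin synthesis in the stressed soybean leaf was followed through the genes whose deposited description names an enzyme of the pathway. The 4 enzyme names searched were tryptophan decarboxylase, tryptamine 5-hydroxylase, serotonin N-acetyltransferase and acetylserotonin O-methyltransferase, and a gene also had to reach 1 FPKM (sequenced fragments scaled to transcript length and library size) in at least 3 of 12 libraries. Of 46446 genes in the table, 28260 passed that filter on low values and 1 of them met the rule, Glyma.02G126500 on chromosome 2, described as serotonin N-acetyltransferase 2, chloroplastic (SNAT2 here). The other 3 names matched 0 descriptions. The working name "melatonin synthesis genes" therefore covers 1 enzymatic step by name, and the other steps were followed only through relatives and through enzyme numbers. The authors' table itself annotates Glyma.02G126500 with peptide alpha-N-acetyltransferase activity and a protein acetyltransferase complex, and gives it no enzyme number.

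Plants make melatonin from tryptophan. Tryptophan is decarboxylated to tryptamine, tryptamine is hydroxylated to serotonin by a cytochrome P450 of the 71 family in rice, serotonin is acetylated by serotonin N-acetyltransferase, and N-acetylserotonin is O-methylated to melatonin. In Arabidopsis and rice, the acetyltransferases of this step are plastid proteins of the GCN5-related family, and caffeic acid O-methyltransferase can carry out the methylation as well. Applied melatonin is studied as a protectant of leaves under salt and alkali, and the question here is whether spraying it changes the leaf's own synthesis genes.

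All plants were the wild-type cultivar HN95 grown in pots under saline-alkali stress from a mix of NaCl and Na2CO3 (40 mM each) with NaHCO3 and Na2SO4 (320 mM each). The sprays were nano-SiO2 (silica nanoparticles, 200 mg/L) together with melatonin (MT, 300 µM), MT alone at the same dose, nano-SiO2 alone at the same dose, and a stressed control whose spray is not described. Each group had 3 libraries of leaves taken at 7 days, all with the same batch label, and no unstressed group is among them. Whether the biological replicates came from separate plants is not stated, so the p-values rest on a spread between samples that may be technical in part.

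The FPKM of a library summed to between 522120 and 559092, and 25557 to 27660 genes reached 1 FPKM. Genes that mark leaf mesophyll (chlorophyll a-b binding proteins and RuBisCO small chains) were abundant in every library, and the 6 seed storage genes together stayed at or under 0.254 FPKM. The libraries of a group did not lie together on the first principal component of the tested genes, which held 32.9% of the variance. Control 1 scored -27.8 against 17.2 and 24.7 for the other control libraries, and MT 3 scored 8.0 against -26.6 and -30.1 for the other MT libraries. Among nano-SiO2+MT libraries, replicate 3 scored 4.2 against -28.8 and -29.6. Among nano-SiO2 libraries, replicate 2 scored 49.8 against 18.6 and 20.2. Comparisons are also given without control 1 and MT 3 together, a setting that keeps nano-SiO2+MT 3 and nano-SiO2 2.

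SNAT2 was expressed at a middling level in every library and did not differ detectably between any of the sprays. Its level was 11.6, 12.8 and 9.6 FPKM in leaves sprayed with nano-SiO2+MT. It was 10.2, 15.1 and 7.35 FPKM in MT leaves. Leaves sprayed with nano-SiO2 had 8.36, 5.76 and 10.3 FPKM, and control leaves had 12.4, 8.91 and 7.82 FPKM. The highest and the second lowest of the 12 values were both from MT leaves, and the lowest was from nano-SiO2 leaves. The 4 groups overlapped in every pairwise comparison.

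SNAT2 averaged 11.4 ± 1.64 FPKM in nano-SiO2+MT leaves, 10.9 ± 3.93 FPKM in MT leaves, 8.14 ± 2.28 FPKM in nano-SiO2 leaves and 9.72 ± 2.4 FPKM in control leaves (SD, n = 3 each), so that nano-SiO2 leaves came lowest, below control leaves. No neighbours in this order differed by more than their spread. The coefficient of variation was 14.5% in nano-SiO2+MT leaves, 36.2% in MT leaves, 28% in nano-SiO2 leaves and 24.7% in control leaves. The moderated F test of limma among the 4 groups gave F = 1.29 with an adjusted p of 0.584, while 4.12% of tested genes passed that test. In the authors' deposited table, whose comparison is not named, the gene has p = 0.14 and q = 0.509 and is not marked significant.

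**Figure D1:**
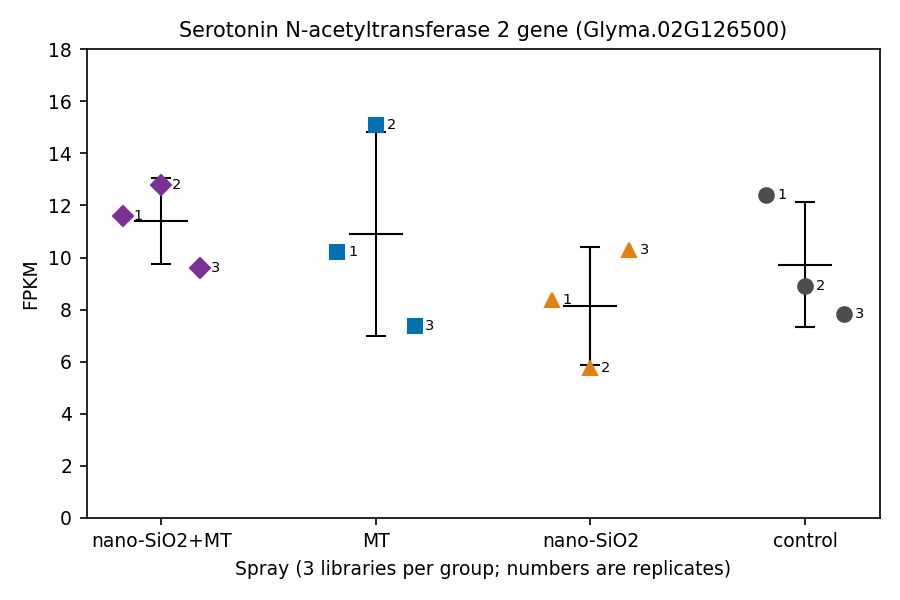
FPKM of Glyma.02G126500 (SNAT2) in each of 12 leaf libraries, by spray; points are libraries with their replicate number, and bars give the mean ± SD of 3. The groups overlap, from 5.76 FPKM in a nano-SiO2 library to 15.1 FPKM in an MT library.

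The direct test of the question is MT against no MT. MT alone against control gave a log2 change of FPKM + 1 of 0.12 for SNAT2 (SE 0.25, limma adjusted p = 0.886), with a 95% interval of -0.41 to 0.65. MT libraries lay above control libraries in 5 of 9 pairs, and an exact two-sided permutation test gave p = 0.7, where 0.1 is the smallest p that 3 against 3 libraries allow. The direction rested on single libraries, because the change was -0.13 without MT 2, -0.01 without control 3 and 0.52 without control 1 and MT 3 together. Control 1 holds the highest SNAT2 value of control leaves (12.4 FPKM) and MT 3 the lowest of MT leaves (7.35 FPKM). Leaving both out therefore raises this change by construction. For comparison, 3.35% of all tested genes were called in this comparison.

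Where MT was added to nano-SiO2, the difference in SNAT2 did not pass the test either. The log2 change of nano-SiO2+MT against nano-SiO2 was 0.46 (SE 0.25, interval -0.07 to 0.99, limma adjusted p = 0.33), and nano-SiO2+MT libraries were above nano-SiO2 libraries in 8 of 9 pairs (exact permutation p = 0.2). The background was 1.53% of tested genes called, and the median change of all tested genes was -0.15 on the same scale. Under quantile normalization or median-ratio scaling, which remove that shift, the SNAT2 change was 0.61 and was not called under either. The change was 0.26 without nano-SiO2 2, and 0.46 without control 1 and MT 3.

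Averaged over both backgrounds, the MT effect on SNAT2 was 0.29 on the log2 scale (SE 0.17, limma adjusted p = 0.328). As a ratio of FPKM + 1 it was 1.22, with a 95% interval of 0.941 to 1.58. Any change of SNAT2 between those bounds, including no change, was within the error of these libraries. MT libraries were above their counterparts without MT in 13 of 18 pairs within backgrounds, and an exact permutation test over 400 regroupings gave p = 0.19. Of all tested genes, 7.77% were called in this comparison, 580 higher and 1617 lower, with a median change of -0.10. This split depends on the scaling: 921 genes were higher and 879 lower under quantile normalization. Without control 1 and MT 3 the averaged effect on SNAT2 was 0.49 (limma adjusted p = 0.0556). That setting leaves out the highest SNAT2 value of control leaves and the lowest of MT leaves, which raises the effect by construction. The averaged effect was 0.16 without MT 2 and 0.19 without nano-SiO2 2.

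The remaining contrasts did not call SNAT2 either. Its log2 change was 0.22 in nano-SiO2+MT leaves against control (interval -0.31 to 0.75, limma adjusted p = 0.828), where 1.37% of tested genes were called. That change was 0.39 without control 1, alone or together with MT 3, 0.09 without control 3 and 0.13 without nano-SiO2+MT 2. In nano-SiO2 leaves against control it was -0.24 (interval -0.77 to 0.29, adjusted p = 0.716), with a background of 0.492%. This was -0.04 without nano-SiO2 2, -0.06 without control 1, alone or together with MT 3, and -0.41 without nano-SiO2 3. Between nano-SiO2+MT and MT leaves it was 0.10 (interval -0.43 to 0.63, adjusted p = 1), with a background of 0.294%. The interaction, which takes the MT effect without nano-SiO2 from that with it, was 0.34 (interval -0.41 to 1.09, adjusted p = 0.83), with a background of 0.524%. The sign was negative without control 1 and MT 3 for nano-SiO2+MT against MT (-0.13) and for the interaction (-0.06). These comparisons share libraries and are not independent of each other.

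**Figure D2:**
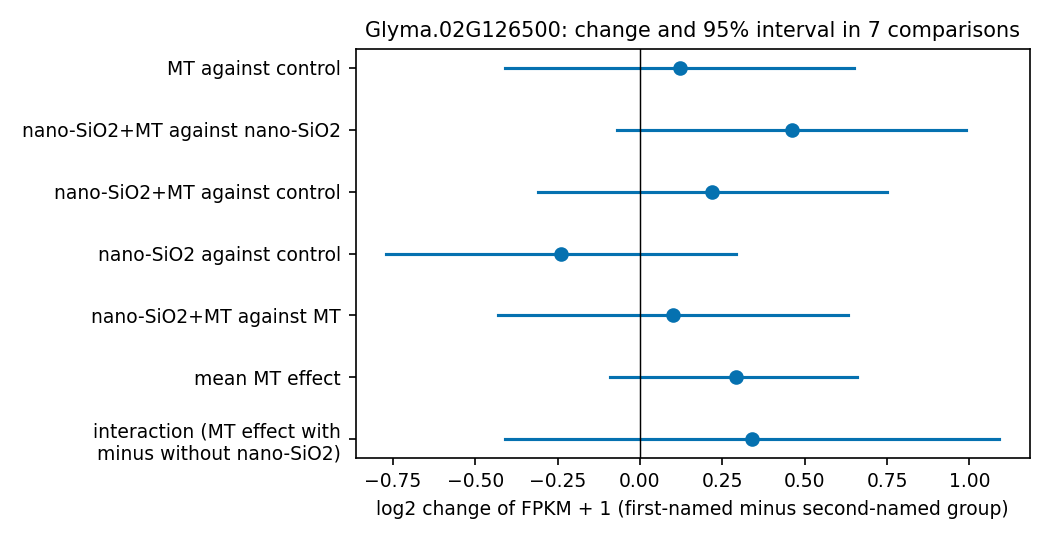
Log2 change of FPKM + 1 of Glyma.02G126500 (SNAT2) with its 95% interval in 7 comparisons, first-named minus second-named group. Every interval includes 0; the narrowest is that of the mean MT effect, -0.09 to 0.66.

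What varied in SNAT2 was the library more than the spray. Over the 12 libraries its FPKM spanned 2.62-fold, and 25.8% of the variance of its log2 values lay between the group means, against a median of 36.2% over all tested genes. The SD within groups was 0.354 on the log2 scale, against a median of 0.187 over the 3314 tested genes with a mean between 8.02 and 12.5 FPKM, a level close to its own, and 91.8% of those had a smaller SD. Its mean of 10 FPKM was above that of 72% of tested genes.

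SNAT2 was high in the libraries that were rich in mesophyll transcripts. The summed FPKM of 28 tested mesophyll genes was 59908, 66877 and 48568 in nano-SiO2+MT leaves, and 58788, 62688 and 43837 in MT leaves. It was 46184, 27587 and 45664 in nano-SiO2 leaves and 74762, 50939 and 46498 in control leaves. The nano-SiO2 library with the lowest mesophyll sum also had the lowest SNAT2, and within nano-SiO2+MT, MT and control leaves both measures put the libraries in the same order. For this relation and the other 4 below, SNAT2 was taken as log2(FPKM + 1). Across the 12 libraries Pearson's r was 0.89 (permutation p = 0.00025, adjusted over 5 relations 0.000725) and Spearman's rho was 0.85 (permutation p = 0.0008, adjusted 0.0032). The share of all tested genes that follow this sum as closely was not computed, so the relation is not shown to be particular to SNAT2. Without control 1 and nano-SiO2 2, the libraries farthest from the median of the sum, r was 0.86. The deviations from the group means, which hold no difference between sprays, gave r = 0.89.

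SNAT2 followed the first principal component as closely, with r = -0.88 (permutation p = 0.00029, adjusted 0.000725) and rho = -0.84 (permutation p = 0.00128, adjusted 0.0032). The value was r = -0.80 without nano-SiO2 2 and MT 2, and -0.87 within groups. Such a relation is shared by many genes, since 5.52% of tested genes had an absolute r to this component at least as high, and the median was 0.503. The summed FPKM of 32 tested genes of secondary wall formation did not show one that passed (r = -0.33, permutation p = 0.297, adjusted 0.371, and rho = -0.38, permutation p = 0.22, adjusted 0.22). That of dividing cells, which rests on only 2 tested genes of 12, did not either (r = -0.23, permutation p = 0.466, adjusted 0.466, and rho = -0.41, permutation p = 0.184, adjusted 0.22). Without the libraries farthest from the median r was -0.58 for wall genes and -0.77 for dividing cells, and within groups 0.07 and -0.31. The last of the 5 lists, searched as leghemoglobins of nodules, held 2 leghemoglobin reductases, which do not mark nodules. Its sum gave r = 0.83 (permutation p = 0.00078, adjusted 0.0013) and rho = 0.78 (permutation p = 0.00445, adjusted 0.00742), with r = 0.63 without nano-SiO2 2 and MT 3 and 0.91 within groups. In such bulk samples, fewer cells of a type and less RNA per cell cannot be told apart, and the part of leaf composition in the SNAT2 values was not tested.

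**Figure D3:**
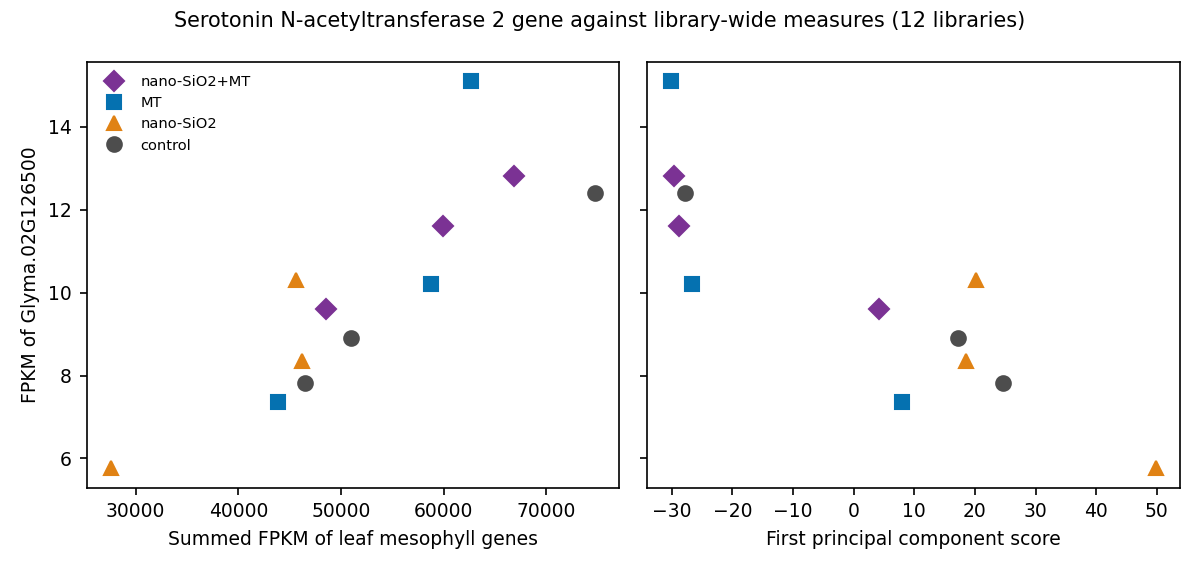
FPKM of Glyma.02G126500 (SNAT2) against the summed FPKM of 28 leaf mesophyll genes (left) and against the first principal component score (right); each point is 1 of 12 libraries, marked by spray. SNAT2 is high where the mesophyll sum is high (r = 0.89) and where the score is low (r = -0.88), and each spray spreads along both axes. Both r were computed on log2(FPKM + 1) of SNAT2, while the axis shows FPKM.

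The genes with the pattern most like that of SNAT2 were of mixed description, and the share of plastid proteins among them was not compared with that of all genes. By Pearson's r of log2(FPKM + 1) over the 12 libraries, the 5 nearest of all tested genes were Glyma.11G097200, the chloroplast signal recognition particle 43 kDa protein (0.972), Glyma.11G243300, an uncharacterized protein (0.971), Glyma.03G172500, a hypothetical protein (0.966), Glyma.14G084700, a dehydration responsive element binding protein (0.964), and Glyma.07G223100, a BOI-related E3 ubiquitin ligase (0.956). The chloroplast signal recognition particle delivers light-harvesting proteins to the thylakoid membrane. Its 43 kDa subunit had 89.2, 96.8 and 64.4 FPKM in nano-SiO2+MT leaves, 76, 98.2 and 51.1 FPKM in MT leaves, 59.1, 33.7 and 63.4 FPKM in nano-SiO2 leaves and 91.6, 60.4 and 51.6 FPKM in control leaves. Its lowest library was the nano-SiO2 library in which SNAT2 was lowest too. None of the 5 was called in MT against control (limma adjusted p from 0.744 to 0.89) or in the mean MT effect (0.209 to 0.318). These likenesses are descriptions over libraries that share the same main component.

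The other genes of the pathway and their relatives were taken from 11 lists made with search words and enzyme numbers, 163 genes in the table of which 74 were tested. Called genes are named below because they were called, so a separation of groups in such a gene is no further support. How many of all tested genes separate in the same way was not counted. MT against control called 1 higher and 2 lower of the 74 (4.05%, with all tested genes at 3.35%). Adding MT to nano-SiO2 called 0 higher and 3 lower (4.05%, with all tested genes at 1.53%). The mean MT effect called 1 higher and 12 lower, 17.6% of the 74 against 7.77% of all tested genes. Some of these genes passed the filter only or mainly through groups where they were high, as given with each. The median mean MT effect of the 74 was -0.12, beside -0.10 over all tested genes. Under median-ratio scaling, in which the median of all genes was -0.008, 7 of the 74 were called. Of all 28260 tested genes, 937 were called higher and 892 lower in that setting. None of the 13 changed direction under the alternative settings. Leaving out control 2, control 3, nano-SiO2 1, MT 1, MT 2 or nano-SiO2+MT 1 lowered the 13 calls to between 5 and 8. The calls among all tested genes fell as well, from 580 higher and 1617 lower to 342 to 495 higher and 727 to 1414 lower. Leaving out control 2, control 3, MT 1 or MT 2 lowered the 3 calls of MT against control to 1. Among all tested genes these settings lowered 470 higher and 478 lower calls to 230 to 264 higher and 120 to 213 lower. The 3 calls of nano-SiO2+MT against nano-SiO2 became 0 or 1 without control 2, nano-SiO2 1, nano-SiO2 2, nano-SiO2+MT 1 or nano-SiO2+MT 2, 6 without control 1 and 7 without MT 3. Among all tested genes the first 5 of these settings changed 87 higher and 345 lower calls to 27 to 50 higher and 66 to 171 lower. Without control 1 there were 91 higher and 413 lower, and without MT 3 there were 103 higher and 432 lower.

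**Figure D4:**
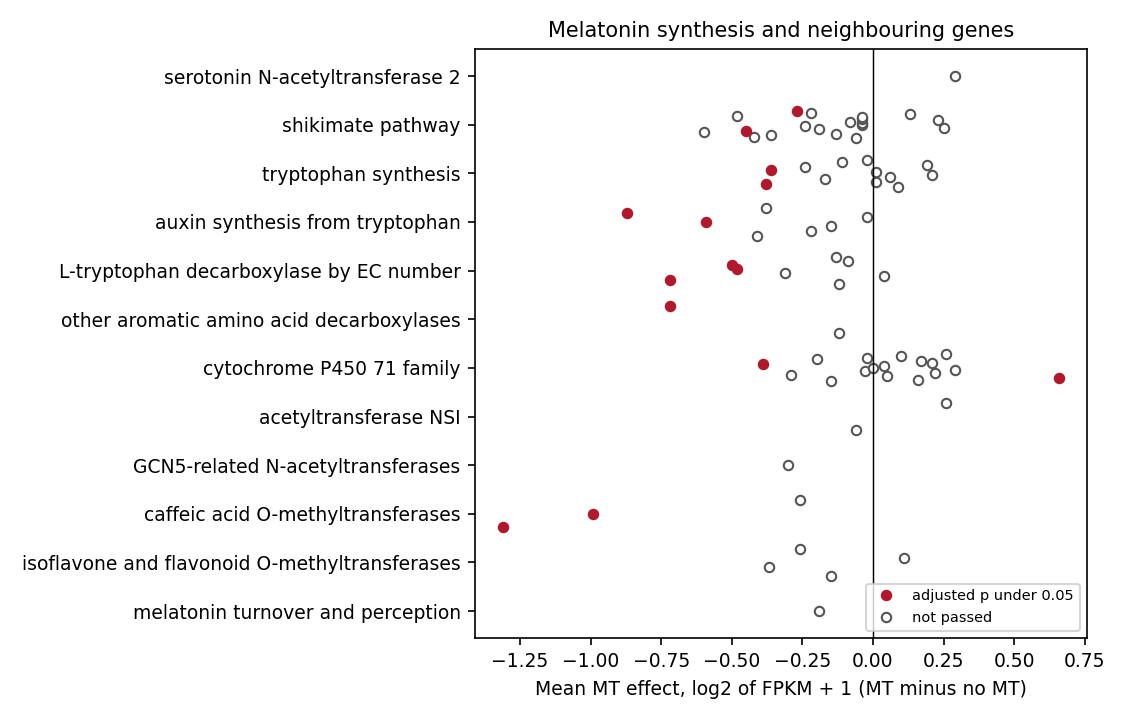
Mean MT effect (log2 of FPKM + 1, MT minus no MT, averaged over both nano-SiO2 backgrounds) of each tested gene, by step from SNAT2 at the top through precursor supply to relatives; filled points had a limma adjusted p under 0.05. Filled points lie below 0 except for Glyma.03G031200 at 0.66, and 2 genes stand in both decarboxylase rows.

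Few genes of precursor supply were called, and none of these calls held under every scaling. Of 19 tested shikimate pathway genes, which make the precursor of all aromatic amino acids, 2 fell in the mean MT effect and 17 did not pass (10.5% called, with 7.77% over all tested genes). Of these 2, Glyma.03G027400, which encodes the EPSP synthase (3-phosphoshikimate 1-carboxyvinyltransferase 2), changed by -0.45 (SE 0.11, limma adjusted p = 0.025), a call kept in 13 of 20 alternative settings. The chorismate synthase gene Glyma.20G179500 changed by -0.27 (SE 0.08, adjusted p = 0.0484), a call kept in 2 of 20. Of 12 tryptophan synthesis genes, 2 fell and 10 did not pass (16.7% called). The anthranilate synthase beta subunit gene Glyma.16G058800, of the committed step to tryptophan, averaged 8.85 ± 0.0834 FPKM in nano-SiO2+MT leaves, 10.1 ± 1.37 FPKM in MT leaves, 13.3 ± 1.29 FPKM in nano-SiO2 leaves and 11.7 ± 1.04 FPKM in control leaves (SD, n = 3 each). Its mean MT effect was -0.36 (SE 0.09, limma adjusted p = 0.024), and the call was kept in 14 of 20 settings. The tryptophan synthase alpha chain gene Glyma.03G158400 changed by -0.38 (adjusted p = 0.0474), a call kept in 7 of 19 settings. Under median-ratio scaling, which removes the shift of -0.10 in the median of all genes, all 4 of these calls were lost, and under quantile normalization those other than Glyma.16G058800 were lost as well.

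Auxin synthesis draws on the same tryptophan, and 2 of its 7 tested genes fell in the mean MT effect while 5 did not pass. That was 28.6% called, with 7.77% over all tested genes, most of them lower. Glyma.16G160600, a tryptophan aminotransferase-related gene, had 5.74, 7.58 and 8.86 FPKM in nano-SiO2+MT leaves and 3.14, 3.91 and 4.73 FPKM in MT leaves. It had 13.2, 14.1 and 21.8 FPKM in nano-SiO2 leaves and 5.37, 7.54 and 8.38 FPKM in control leaves. The nano-SiO2 leaves stood above all others, and MT leaves lay below control leaves without overlap. The gene is named because it was called, so this separation is no further support. Its mean MT effect was -0.87 (SE 0.15, limma adjusted p = 0.00476), and this call held in all 20 alternative settings. Its call in nano-SiO2 against control (1.09, adjusted p = 0.0471) was kept in 4 of 21. The YUCCA2-like gene Glyma.05G231100, for the monooxygenase that yields auxin from indole-3-pyruvate, averaged 0.34 ± 0.075 FPKM in nano-SiO2+MT leaves and 0.492 ± 0.152 FPKM in MT leaves, against 1.16 ± 0.367 FPKM in nano-SiO2 leaves and 1.12 ± 0.355 FPKM in control leaves (SD, n = 3 each). Its mean MT effect was -0.59 (SE 0.12, limma adjusted p = 0.0103) and was called in all 19 settings that tested it. This gene reached 1 FPKM only in libraries without MT, so it passed the filter only through the groups where it was high. Its call and its place in the 28.6% are therefore description, not support.

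For the first step, decarboxylation, the authors' table gives the enzyme number of L-tryptophan decarboxylase to 15 genes. All 15 carry the number of aromatic-L-amino-acid decarboxylase as well, and the named ones are described as tyrosine or tyrosine/DOPA decarboxylases, so which amino acid each accepts is not told by the table. Of the 15, 8 were tested, and the 7 others had means of at most 0.52 FPKM. In the mean MT effect 3 of the 8 fell, 0 rose and 5 did not pass (37.5% called, with 7.77% over all tested genes). The list of tyrosine and similar decarboxylases by name held 2 tested genes, both among the 8, of which 1 fell. The lowest adjusted p of the 8 was that of a low gene, Glyma.07G059000 (tyrosine decarboxylase 1). It had 0.764, 0.555 and 0.709 FPKM in nano-SiO2+MT leaves, 0.932, 0.669 and 1.33 FPKM in MT leaves, 1.87, 1.98 and 1.61 FPKM in nano-SiO2 leaves and 1.56, 2.43 and 2.58 FPKM in control leaves. Every MT library was lower than every library without MT, which is no further support in a gene named because it was called. The gene reached 1 FPKM in every library without MT and in 1 library with MT, so it passed the filter mainly through the groups where it was high. Its call and its place in the 37.5% are likewise description, not support. Its mean MT effect was -0.72 (SE 0.11, limma adjusted p = 0.00297), called in all 19 settings that tested it. By background, the change was -0.69 in MT against control (adjusted p = 0.0343) and -0.75 in nano-SiO2+MT against nano-SiO2 (adjusted p = 0.0402), with calls kept in 14 and 8 of 20 settings.

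The other 2 decarboxylase genes that fell, both described as tyrosine/DOPA decarboxylase 2, did so by less. Glyma.09G021700 changed by -0.48 (limma adjusted p = 0.0443) and Glyma.15G128000 by -0.50 (adjusted p = 0.0472), with calls kept in 9 and 4 of 20 settings and lost under both scalings. The most abundant of the 8 was Glyma.03G167900, also a tyrosine decarboxylase 1, with 40.5, 37.3 and 41.8 FPKM in nano-SiO2+MT leaves, 43, 42.4 and 47.9 FPKM in MT leaves, 49.1, 57.1 and 43.3 FPKM in nano-SiO2 leaves and 38.5, 43.6 and 44.9 FPKM in control leaves. MT and control leaves overlapped, and its mean MT effect of -0.12 (adjusted p = 0.438) did not pass.

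**Figure D5:**
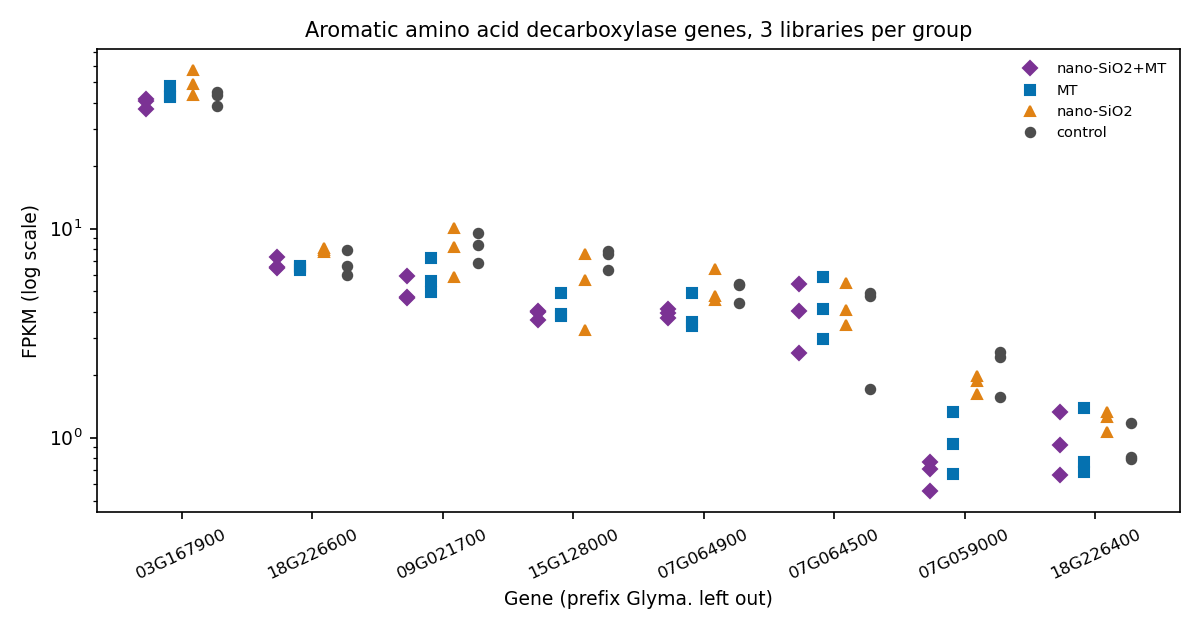
FPKM (log scale) of the 8 tested aromatic amino acid decarboxylase genes in each library, by spray, ordered by mean level. Glyma.07G059000, named because it was called, has its MT libraries, 0.555 to 1.33 FPKM, below those without MT, 1.56 to 2.58 FPKM. The most abundant gene, Glyma.03G167900, lies between 37.3 and 57.1 FPKM.

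For the second step, hydroxylation, relatives were the cytochrome P450 genes of the 71 family, a large family of which only some members hydroxylate tryptamine. Of 17 tested, 1 rose and 1 fell in the mean MT effect and 15 did not pass (11.8% called, with 7.77% over all tested genes). Glyma.03G031200 (71B37-like) had 1.94, 1.81 and 2.01 FPKM in nano-SiO2+MT leaves, 2.96, 3.33 and 3.9 FPKM in MT leaves, 1.75, 1.74 and 1.53 FPKM in nano-SiO2 leaves and 0.847, 1.29 and 0.681 FPKM in control leaves. All MT libraries exceeded all control libraries, again in a gene named because it was called. The log2 change in MT against control was 1.19 (SE 0.14, limma adjusted p = 0.000415), and in nano-SiO2+MT against nano-SiO2 it was 0.13 (adjusted p = 0.614). The interaction was -1.06 (limma adjusted p = 0.0279), an MT effect that was smaller with nano-SiO2 than without it. Its sign held in every alternative setting, while the call was kept in 10 of 19 and lost at an adjusted p of up to 0.159. The gene that fell, Glyma.13G181900 (71A26), changed by -0.39 (adjusted p = 0.0429), a call kept in 5 of 16 settings and lost under both scalings. This gene reached 1 FPKM only in nano-SiO2 libraries, so it passed the filter only through the group where it was highest. Its place in the 11.8% is therefore description, not support.

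For the acetylation step, the other genes looked at were 2 described as acetyltransferase NSI, whose Arabidopsis namesake is serotonin N-acetyltransferase 1, and 1 further gene with an acetyltransferase (GNAT) domain. None of these 3 passed in the mean MT effect, where 7.77% of all tested genes were called. Glyma.09G272400 (NSI), more abundant than SNAT2 per length, had 42.2, 41.5 and 41.3 FPKM in nano-SiO2+MT leaves, 47.6, 49 and 52.1 FPKM in MT leaves, 48.9, 54.7 and 38.1 FPKM in nano-SiO2 leaves and 46, 47.7 and 49.7 FPKM in control leaves. MT and control leaves overlapped, and its mean MT effect was -0.06 (interval -0.25 to 0.14, limma adjusted p = 0.741). Glyma.18G216900 (NSI) averaged 8.51 ± 1.15 FPKM in nano-SiO2+MT leaves, 9.87 ± 1.15 FPKM in MT leaves, 7.69 ± 2.32 FPKM in nano-SiO2 leaves and 7.52 ± 1.41 FPKM in control leaves (SD, n = 3 each). Its mean MT effect was 0.26 (interval -0.03 to 0.55, adjusted p = 0.263). The GNAT gene Glyma.10G245300 changed by -0.30 (adjusted p = 0.443).

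For the last step, O-methylation, 2 of 3 tested caffeic acid O-methyltransferase genes fell in the mean MT effect and 1 did not pass. That was 66.7% called, with 7.77% over all tested genes. Caffeic acid O-methyltransferases are best known for making lignin precursors. Glyma.04G227700 had 13.1, 19 and 26.3 FPKM in nano-SiO2+MT leaves, 12.6, 19.6 and 19.6 FPKM in MT leaves, 46.9, 57.1 and 60.2 FPKM in nano-SiO2 leaves and 28.4, 40.3 and 50.1 FPKM in control leaves. All 6 MT libraries were below all 6 without MT, which the call largely implies and which adds no support to it. The log2 change was -1.14 in MT against control (SE 0.25, limma adjusted p = 0.0293) and -1.49 in nano-SiO2+MT against nano-SiO2 (SE 0.25, adjusted p = 0.0147), with calls kept in 16 and 19 of 21 settings. The mean MT effect of -1.31 (SE 0.18, adjusted p = 0.00141) was called in all 20 settings. Glyma.06G137300 changed by -0.99 (SE 0.22, adjusted p = 0.0183), and this call was lost without control 2 and without MT 1, with an adjusted p of at most 0.0545. The summed FPKM of 68 genes of secondary wall formation, 32 of them tested, was 77.7 to 225 in nano-SiO2+MT leaves, 66.1 to 97 in MT leaves, 209 to 475 in nano-SiO2 leaves and 169 to 278 in control leaves. MT leaves lay below control leaves in this sum, and nano-SiO2+MT leaves overlapped with nano-SiO2 and with control leaves. Over the 32 tested genes alone, nano-SiO2+MT leaves (66.4, 149 and 197) lay below nano-SiO2 leaves (204, 265 and 432) without overlap. They still overlapped with control leaves. The part of these wall genes in the methyltransferase result was not tested.

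Of 4 tested isoflavone and flavonoid O-methyltransferase genes, 0 passed in the mean MT effect, with 7.77% of all tested genes called. The most abundant, Glyma.08G248000 (isoflavone 7-O-methyltransferase), averaged 4.55 ± 0.518 FPKM in nano-SiO2+MT leaves, 6.3 ± 1.73 FPKM in MT leaves, 8.29 ± 1.22 FPKM in nano-SiO2 leaves and 6.17 ± 0.882 FPKM in control leaves (SD, n = 3 each), and its mean MT effect was -0.37 (limma adjusted p = 0.0885). On the side of perception, 1 gene was found, Glyma.19G240200, similar to CAND2, which was described in Arabidopsis as a melatonin receptor. It averaged 7.36 ± 1.13 FPKM in nano-SiO2+MT leaves, 8.98 ± 0.4 FPKM in MT leaves, 10.5 ± 0.859 FPKM in nano-SiO2 leaves and 8.42 ± 0.423 FPKM in control leaves (SD, n = 3 each), and its mean MT effect of -0.19 did not pass (limma adjusted p = 0.186).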

How the data were processed

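Leaf mRNA was enriched with oligo(dT) and sequenced. Per the file headers, the authors deposited 1 FPKM value per gene and library, and the authors' deposited table adds p-values and q-values for a comparison it does not name. The submitters' processing notes list DESeq2 1.34.0 and R 4.1.2. The aligner, the strand setting and the tool that gave FPKM are not given in the sources, so depth is unknown, and close copies or antisense genes may share reads. Of the identifiers, 0 matched the 59048 genes of the RefSeq table, so only the chromosome in the identifier is given.

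Genes of at least 1 FPKM in at least 3 of 12 libraries were tested on log2(FPKM + 1), which understates changes of low genes. All 12 libraries entered 1 fit in limma 3.58.1 (R 4.3.3; eBayes with trend and robust) with a mean per group, two-sided, with Benjamini-Hochberg adjustment over the 28260 tested genes and calls at an adjusted p under 0.05. Python 3.11.15 with SciPy 1.17.1 gave the permutation tests (exact for group differences, 100000 resamples for correlations). The workflow was tested on simulated data.

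The members and lists were chosen with earlier results of these data known. From the lists, genes called for MT were named, at most 4 per list by adjusted p, or else the most abundant gene. Of the 11 lists, 2 (acetyltransferase NSI and the enzyme number of L-tryptophan decarboxylase) were added after the descriptions were read, and the search words of the cytochrome P450 71 family were narrowed to exclude other families. Values of the other decarboxylase genes and of both NSI genes were added outside that rule. Genes most like SNAT2 were the 5 highest in Pearson's r. Alternatives were another pseudocount, filters, scalings, variance models, a replicate block, fewer groups and libraries left out. The permutation tests of SNAT2 were added after seeing the data.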

Additional observations from a re-analysis of the deposited data

Results flagged for a closer look

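The MT effect on the cytochrome P450 gene Glyma.03G031200 differed with the presence of nano-SiO2 by a tested interaction of -1.06 on the log2 scale (limma adjusted p = 0.0279). For the CAND2-like gene Glyma.19G240200, all nano-SiO2+MT libraries were below the mean of nano-SiO2 leaves and all MT libraries above the mean of control leaves. MT and control leaves overlapped, with a change of only 0.08 (limma adjusted p = 0.814). The difference between these MT effects was -0.55, and its interaction did not pass (adjusted p = 0.282). The median interaction over all tested genes was -0.10, and how many genes show such a pattern was not counted. For the abundant tyrosine decarboxylase gene Glyma.03G167900 the same pattern gave a difference of -0.38, which did not pass either (adjusted p = 0.592). Its MT and control leaves overlapped too, with a change of 0.07 (limma adjusted p = 0.86).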

How the results depend on the processing

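SNAT2 was called in 0 of the 8 comparisons under the alternatives run. Its mean MT effect was 0.29 as reported, 0.38 and 0.39 under quantile and median-ratio scaling, and 0.16 to 0.40 with 1 library left out. Its change in MT against control ranged from -0.13 to 0.35 with 1 library left out, negative without control 3 (-0.01) and without MT 2 (-0.13). For nano-SiO2+MT against MT the range was also -0.13 to 0.35, negative without MT 3. Without control 1 and MT 3 together this change was -0.13 and the interaction -0.06. MT 3 holds the lowest SNAT2 value of MT leaves (7.35 FPKM) and control 1 the highest of control leaves (12.4 FPKM). Leaving out MT 3 therefore lowers nano-SiO2+MT against MT by construction, and leaving out both lowers the interaction.

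Counts of called pathway genes moved more, and the counts among all tested genes moved as well. For MT against control, 3 became 1 with a mean of at least 5 FPKM, 5 with only the compared groups fitted, and 1 to 4 with 1 library left out. All tested genes gave 470 higher and 478 lower calls as reported. With that mean, 293 were higher and 310 lower of 14127, and with only the compared groups 473 higher and 615 lower. For nano-SiO2+MT against nano-SiO2, 3 became 1 under quantile normalization or with only the compared groups, 8 without control 1 and MT 3, and 0 to 7 with 1 library left out. Among all tested genes, 87 higher and 345 lower calls became 138 and 169 under quantile normalization and 23 and 92 with only the compared groups. They became 125 and 617 without control 1 and MT 3. For the mean MT effect, 13 became 8 with a mean of at least 5 FPKM, 7 under median-ratio scaling, and 5 to 16 with 1 library left out. Among all tested genes, 580 higher and 1617 lower calls became 374 and 888 of 14127 with that mean. Under median-ratio scaling they became 937 and 892.

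Whether replicate numbers pair the samples cannot be told from the correlations. Of 18 same-numbered pairs, 9 had a correlation of deviations over 0.1, from -0.34 to 0.53 in all. With the replicate number as a block, the SNAT2 mean MT effect was 0.29 (limma adjusted p = 0.323), and the pathway calls for nano-SiO2+MT against nano-SiO2 were 8. Over all tested genes, the block moved the calls of that comparison from 87 higher and 345 lower to 119 higher and 670 lower. In the mean MT effect it moved them from 580 higher and 1617 lower to 638 higher and 2132 lower. Exact tests of 3 against 3 libraries cannot go below p = 0.1, and counting error is unknown.

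Among all genes, calls in the mean MT effect were 26.4% higher as reported and 51.2% higher under either scaling. In nano-SiO2+MT against nano-SiO2 they were 20.1% higher, against 45.0% under quantile normalization and 42.4% under median-ratio scaling.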
